A study of Mus musculus with 30 samples.

Results

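The proteins of the cytosolic ribosome were followed in mouse blood leukocytes after cyclophosphamide, an alkylating drug that kills dividing blood cell precursors. Members were every array probe with 1 gene symbol of the form Rpl, Rps, Rplp0 to Rplp2 or Rpsa, without the Rps6k kinases and without pseudogenes. That gave 63 genes on 64 probes, of 13027 features on the array. A gene was tested if it had 3 or more values per group of 4 samples and 2 or more at day 5, which left 32 of the 63 members, among 6515 tested features. The filter looks at missing values and not at direction, but the 31 untested members are not described by what follows on changes.

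All animals were DBA/2 mice, an inbred strain. There were 4 untreated samples, 4 samples taken 1 day, 4 taken 2 days and 3 taken 5 days after 83 mg per kg cyclophosphamide, given into the peritoneum. Blood RNA carried Cy5 and a pool of DBA/2 bone marrow cells carried Cy3 on every array, so each value is a log2 ratio of blood leukocytes over marrow. Each sample had 2 technical replicates, which were averaged. The labels call the marrow pool untreated in one place and name cyclophosphamide for that channel in another, and they give neither the animals' age nor the number of mice in a sample. The sources used here do not state the logarithm's base. It was taken as 2, and a natural logarithm is not excluded.

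A ribosome is built from a small subunit, which reads the mRNA, and a large subunit, which joins amino acids, and each ribosomal protein is normally present as 1 copy per particle. Ribosomal protein mRNAs are among the most abundant of any cell. They begin with a run of pyrimidines, the 5′ terminal oligopyrimidine or TOP motif, through which mTOR and the RNA-binding protein Larp1 control their translation. Arrays measure the mRNA and not its translation. Many of these genes have near-identical processed pseudogenes, and whether a probe also bound pseudogene transcripts was not tested.

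Promoters of the 8 members that passed a test of change are shown because they are the genes the results turn on. The sequences are from RefSeq on GRCm38.p6 and run 5′ to 3′ along the gene, from 80 bases before the transcription start through the 20 bases that follow it. Capitals mark CTTCCG or its reverse complement CGGAAG, which holds the GGAA core known as the binding motif of ETS family transcription factors.
Rpl19 (chr11:98026630-98026729, plus strand): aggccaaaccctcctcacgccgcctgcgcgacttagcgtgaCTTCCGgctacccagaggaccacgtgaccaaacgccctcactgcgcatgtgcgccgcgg
Rpl34 (chr3:130730379-130730478, minus strand): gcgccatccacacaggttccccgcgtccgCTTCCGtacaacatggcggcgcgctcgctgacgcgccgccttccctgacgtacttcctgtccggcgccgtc
Rpl36a (chrX:134585574-134585673, plus strand): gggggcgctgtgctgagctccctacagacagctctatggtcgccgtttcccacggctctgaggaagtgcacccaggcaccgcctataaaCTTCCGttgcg
Rpl37 (chr15:5116533-5116632, plus strand): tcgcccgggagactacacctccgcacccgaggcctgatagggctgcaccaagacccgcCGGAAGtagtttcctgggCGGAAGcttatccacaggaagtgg
Rps15 (chr10:80292351-80292450, plus strand): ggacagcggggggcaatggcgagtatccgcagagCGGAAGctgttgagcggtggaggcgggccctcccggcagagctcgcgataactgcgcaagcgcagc
Rps18 (chr17:33955646-33955745, minus strand): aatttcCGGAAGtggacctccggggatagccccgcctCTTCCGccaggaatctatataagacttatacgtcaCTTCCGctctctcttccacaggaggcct
Rps3 (chr7:99483690-99483789, minus strand): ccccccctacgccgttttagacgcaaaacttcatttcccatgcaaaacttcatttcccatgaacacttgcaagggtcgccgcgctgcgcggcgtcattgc
Rps6 (chr4:86857348-86857447, minus strand): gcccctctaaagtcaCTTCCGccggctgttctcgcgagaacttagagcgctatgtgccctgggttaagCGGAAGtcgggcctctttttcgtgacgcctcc

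The 6-letter motif, searched on both strands over the 300 bases from 250 before to 50 after each start, was in all 8 of these promoters, in Rps3 outside the stretch printed. It was found in 38 of the 53 ribosomal protein members with a promoter entry (71.7%), in 16 of the 22 tested members that were not called, and in 17.2% of all 27025 promoters of the table. Mitochondrial ribosomal proteins held it in 38 of 69 (55.1%). A run of at least 6 pyrimidines between 10 bases before and 20 after the start was found in 29 of the 53 members (54.7%) and in 28.6% of all promoters. Among the called members 3 of 8 had one, as the printed ends of Rps6 and Rps18 show, and among the tested members that were not called 16 of 22. Rpl19 and Rpl34 have 2 promoter entries each and the first was used, so a run at another start is not covered by these counts. The tested members Rps14 and Rps29 were not in the table.

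Of the 63 members, 20 belong to the small subunit, 34 to the large subunit and 3 to the stalk that recruits elongation factors, and 6 are paralogs of a standard ribosomal protein. The tested members were 12 of the small and 17 of the large subunit and 3 paralogs (Rpl39l, Rpl7l1 and Rps27l). None of the 3 stalk genes was tested, since Rplp0 and Rplp1 had a value in 1 sample each and Rplp2 in 4. Rpl5, which binds Mdm2 and thereby stabilises p53, had a value in 1 sample. No value was present in any sample for 9 members, namely Rpl21, Rpl26, Rpl3, Rpl41, Rpl8, Rps12, Rps21, Rps26 and Rps4x. The other untested members had values in 1 to 10 samples, with Rpl10, Rpl10a, Rpl7, Rpl9 and Rps10 in 10 and Rpl22 in 9. Across the 30 columns, 25 to 42 of the 64 probes had a value, against 5314 to 9398 of 13443 probes on the array.

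Relative to marrow, the members lay on both sides of 0 in untreated blood. Rpl12, at the base of the stalk, had a log2 ratio of 1.11 ± 0.18 (SD, n = 4), Rpl19, which helps bridge the subunits, 0.99 ± 0.17 (SD, n = 4), and Rps29, of the small subunit's head, 0.87 ± 0.17 (SD, n = 3). These were the 3 highest of the tested members, and they did not differ beyond their spread. The lowest tested member was Rps27l at -0.99 ± 0.19 (SD, n = 4), a paralog of Rps27 known as a p53 target, followed by Rps23, of the decoding centre, at -0.47 ± 0.37 (SD, n = 4) and the zinc-binding Rpl37a at -0.42 ± 0.27 (SD, n = 4). Rps23 and Rpl37a did not differ beyond their spread. All arrays had the same dye orientation, so a dye effect and a difference between blood and marrow cannot be told apart in these levels.

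Part of the low end has a feature that changes how the values can be read. In every column 1 log2 ratio, between -1.49 and -0.59, was held by 8 to 33 probes within a window 0.003 wide, where 0.503 to 5.42 were counted from the surroundings. Ribosomal proteins were often among them, with 105 of their 1048 values at the shared ratio, against 589 of 227385 values of all probes (0.259%). Rps13 was at it in 19 of 30 columns, Rps23 in 16, Rpl37a in 15, Rpl6 in 12, Rps6 in 11 and Rpl7a in 9. A few other genes, chosen by hand, were looked up too. The globin Hba-a1 was at it in 29 columns, cyclophilin A (Ppia) in 26 and prothymosin (Ptma) in 20. Tpt1 was at it in 15, Pfn1 in 10 and Actg1 in 6. Abundance was not measured, and the remaining probes at the shared ratio are not described here. What makes a ratio shared was not tested, since scanner intensities were not used here. A value at the shared ratio was therefore kept in the main fit, and every count was repeated with such values set to missing, an alternative chosen after seeing the data.

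**Figure D1:**
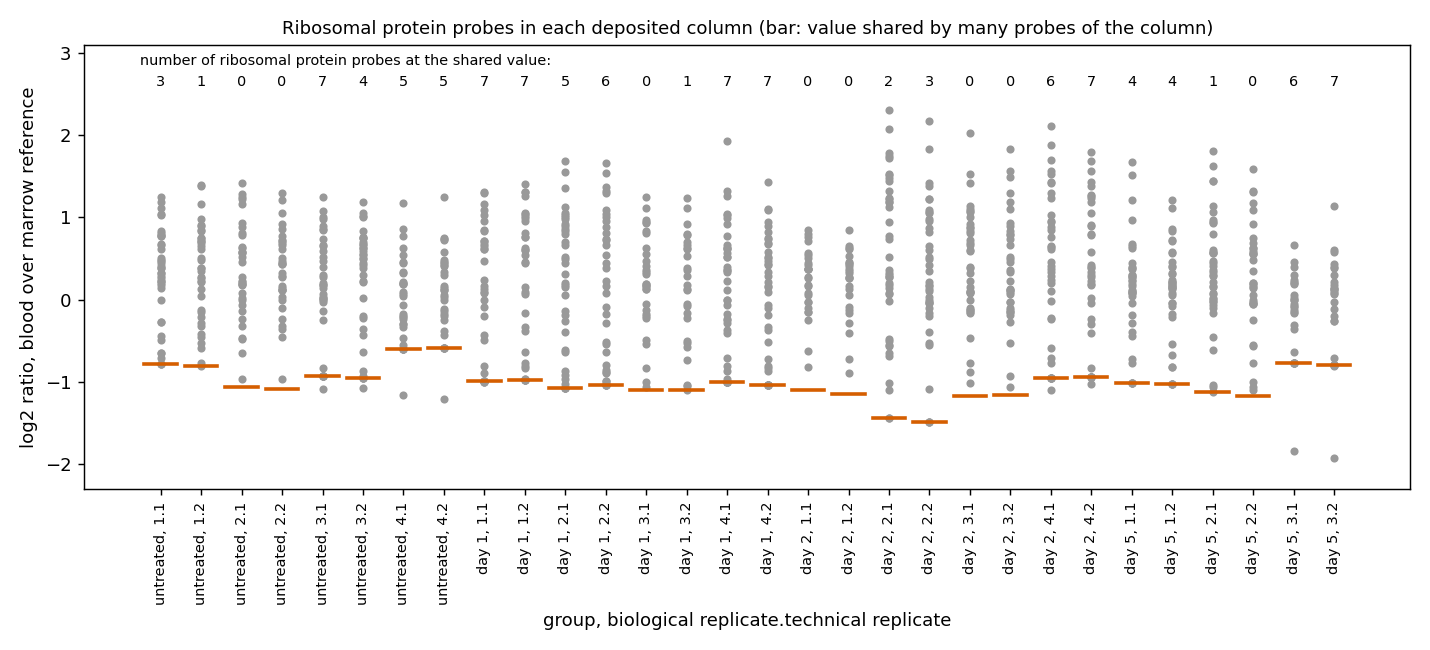
Log2 ratio of blood over marrow (y axis) of every ribosomal protein probe with a value (grey points) in each of the 30 deposited columns (x axis, group and replicate). The bar is the ratio shared by many probes of that column, between -1.49 and -0.59, and the number above each column counts the ribosomal protein probes at it, from 0 to 7. In most columns the bar lies at the lower edge of the members.

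Samples of the same group differed more in these genes than in most. The SD between samples of a group, pooled over groups, had a median of 0.41 log2 units over the 32 tested members and 0.22 over all 6515 features. For the 14 members at a shared ratio in any column it was 0.58, and for the other 18 members 0.27. The paralogs Rpl39l and Rpl7l1 were the steadiest members, with pooled SDs of 0.12 and 0.17. With shared values missing, the median over the 25 members still testable was 0.34.

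**Figure D2:**
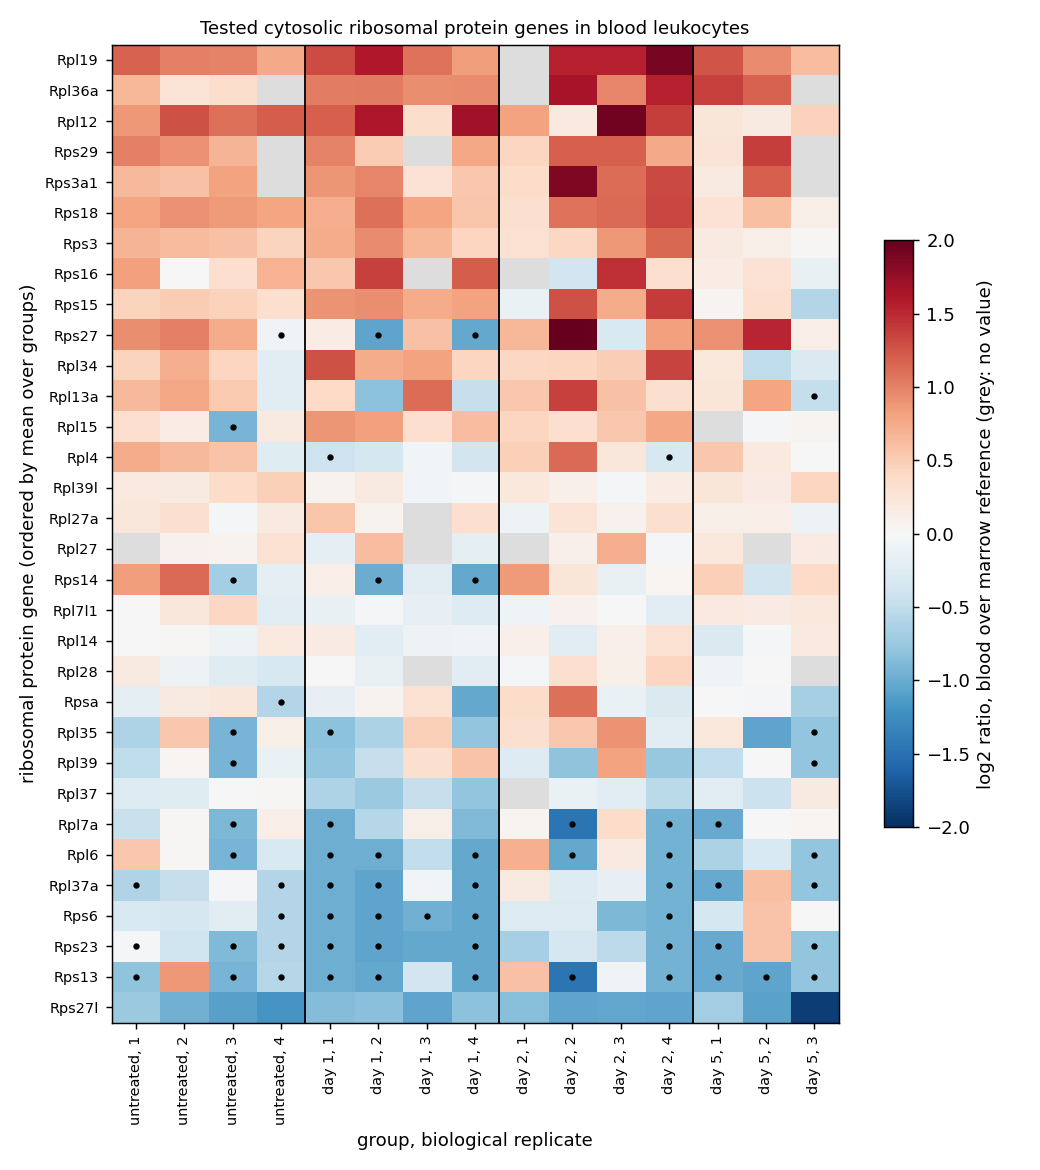
Log2 ratio of blood over marrow (colour, red above and blue below 0, grey for no value) of the 32 tested ribosomal protein genes (rows, by mean) in the 15 samples (columns, untreated and then day 1, 2 and 5). A black dot marks a sample with at least 1 technical replicate at the shared ratio of its column. Dots gather in Rps13, Rps23, Rpl37a, Rps6, Rpl6 and Rpl7a, while Rpl19 at the top is above 0 in every sample with a value.

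The tests asked which members differed between groups of blood samples, where a constant reference and dye effect drop out. limma was fitted on all 6515 features, and a feature was called at a Benjamini-Hochberg adjusted p under 0.05. A log2 change is the first-named group minus the second. In the moderated F test over all 4 groups, 5 of 32 members were called, Rpl36a (adjusted p = 0.00685), Rps6 (0.00755), Rpl19 (0.036), Rpl34 (0.0464) and Rpl37 (0.0493). That is 15.6% of the members, against 22.7% of all features. Rps6 was at the shared ratio in 7 of 8 day 1 columns, and with such values missing it could not be tested. In bulk leukocytes a shift in the mix of cells and a change of RNA within a cell cannot be told apart.

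Rpl36a, a large subunit protein next to the site where spent tRNA leaves, was higher at day 2 than in untreated samples, with the lowest adjusted p of any member. Rpl36a (gene 19982) had log2 ratios of 0.66, 0.27 and 0.35 in 3 untreated samples, 1.02, 1.04, 0.93 and 0.95 at day 1, 1.65, 0.97 and 1.56 in 3 samples at day 2, and 1.37 and 1.19 in 2 samples at day 5. Every treated sample lay above every untreated one. Against untreated samples the log2 change was 0.97 ± 0.17 at day 2 (SE, limma adjusted p = 0.00301), a 1.95-fold difference, and the only one of the 3 that passed. At day 1 it was 0.55 ± 0.16 (SE, adjusted p = 0.0723) and at day 5 0.85 ± 0.20 (SE, adjusted p = 0.060). The day 2 call was kept in all 24 alternatives in which Rpl36a could be tested, with adjusted p between 0.000498 and 0.027. None of its values was at a shared ratio.

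Rpl19 was higher at day 2 than in untreated samples and lower again at day 5. Rpl19 (gene 19921) had 1.18, 1.01, 1.00 and 0.76 in untreated samples, 1.30, 1.60, 1.08 and 0.84 at day 1, 1.56, 1.55 and 1.90 in 3 samples at day 2, and 1.26, 0.94 and 0.62 at day 5. The day 2 samples lay above all untreated and all day 5 samples and overlapped day 1. The log2 change was 0.68 ± 0.19 for day 2 against untreated (SE, adjusted p = 0.027), and -0.73 ± 0.20 for day 5 against day 2 (SE, adjusted p = 0.0154). The first lost its call in 6 of 25 alternatives (adjusted p up to 0.37). These were quantile normalization, where the change was 0.30, technical replicate 2 alone, the trended prior, and leaving out untreated replicate 3 or 4 or day 2 replicate 4. The second lost it in 4 of 25 (adjusted p up to 0.0728), with quantile normalization, with array weights and without day 2 replicate 4 or day 5 replicate 3.

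**Figure D3:**
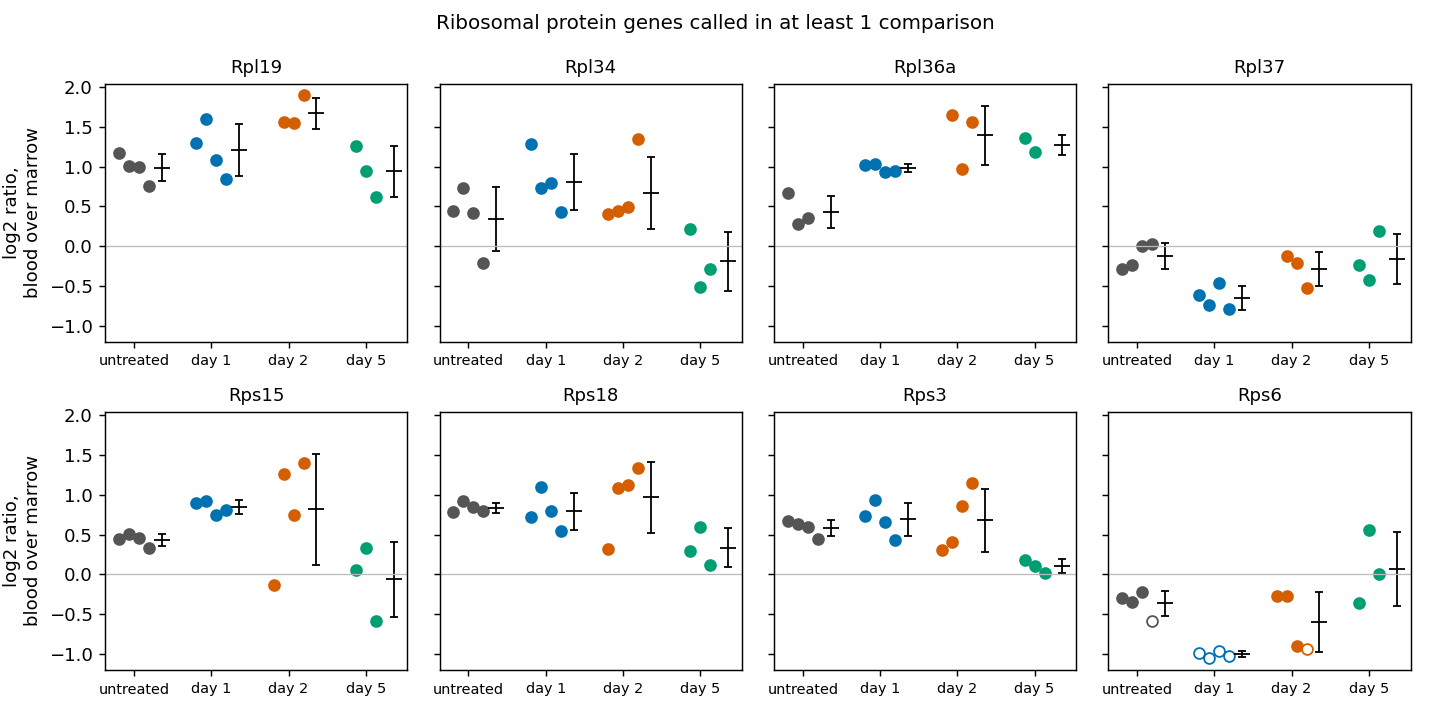
Log2 ratio of blood over marrow (y axis) for each of the 8 ribosomal protein genes called in at least 1 comparison, 1 panel a gene, with 1 point per sample in each group (x axis) and the mean ± SD beside it. Open points are samples with a technical replicate at the shared ratio. For Rps6 all 4 day 1 points are open, and the other 7 genes have none.

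Rpl36a and Rpl19 were the only members called at day 2 against untreated, and both were higher. They make 6.25% of the 32 members, where 12.7% of all features were called, 4.83% higher and 7.84% lower. The 2 groups did not overlap in these 2 members, against 21.4% of all features. The median change over the members was 0.07, and over all features 0.06. The next largest changes were in Rpl35, at the exit of the peptide tunnel (0.60, adjusted p = 0.325), Rpl15 (0.59, adjusted p = 0.108), Rps3a1 (0.49, adjusted p = 0.338) and Rps15 (0.38, adjusted p = 0.375). The change of Rpl15 was 0.30 without untreated replicate 3, its 1 sample at the shared ratio among these groups. Without untreated replicate 3 or 4, or day 2 replicate 4, 1 member was called, and the share of all features in these refits is not given here. On the 22 members with a value in all samples, which leave out both Rpl36a and Rpl19, none was called by limma and 0 had an unadjusted p under 0.05. Of all 4920 features with a value in all samples, 17.7% were called.

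At day 1 against untreated, no member was called by limma, 6 had an unadjusted p under 0.05, and 4.6% of all features were called. The median change was -0.10 over members and 0.03 over all features, with 20 of 32 negative. The largest changes were -0.99 in Rps27 (adjusted p = 0.25), -0.80 in Rps14, the gene of the human 5q- syndrome (adjusted p = 0.241), 0.73 in Rpl15 (adjusted p = 0.0773), -0.73 in Rpl4, which lines the peptide tunnel (adjusted p = 0.122), -0.70 in Rpl6 (adjusted p = 0.273) and -0.64 in Rps6 (adjusted p = 0.0654). Day 1 held 40 of the 105 member values at a shared ratio. The groups did not overlap in 5 members, against 18.3% of all features. A fit with array weights called 5 members and 13.9% of all features, and a fit of only these 2 groups 4 members and 8.87% of all features. Without untreated replicate 3, which was at the shared ratio in Rpl15, the change of Rpl15 was 0.44.

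At day 5 against untreated, again no member was called by limma, 4 had an unadjusted p under 0.05, and 1.09% of all features were called. The median change was -0.06 over members and 0.00 over all features. Below Rpl36a in size came Rpl12 (-0.82, adjusted p = 0.24), Rps13 (-0.59, adjusted p = 0.512), Rpl34 (-0.53, adjusted p = 0.319), Rps18 (-0.50, adjusted p = 0.23) and Rps15 (-0.50, adjusted p = 0.381). The groups did not overlap in 4 members, against 13.6% of all features. Rps13 was at the shared ratio in 5 of 6 day 5 columns, and its change ran from -0.79 to -0.19 over samples left out in turn, the last without untreated replicate 2. A fit of only these 2 groups called 1 member and 0.522% of all features. Without day 2 replicate 3 or day 5 replicate 3, 1 member was called, and the share of all features in these refits is not given here.

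Day 2 against day 1 also gave no called member by limma, with 8 at an unadjusted p under 0.05 and 1.15% of all features called. Changes were positive in 23 of 32 members, and their median was 0.26, against -0.00 over all features. With shared values missing the median was 0.14. The largest were in Rps27 (1.16, adjusted p = 0.339), Rpl35 (0.82, adjusted p = 0.409), Rps14 (0.77, adjusted p = 0.446), Rpl4 (0.68, adjusted p = 0.314), Rpl13a, known for silencing inflammatory mRNAs once released from the ribosome (0.65, adjusted p = 0.541), and Rpl6 (0.60, adjusted p = 0.541). The groups did not overlap in 2 members, against 9.21% of all features.

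Rps15, a small subunit protein needed for export of the subunit from the nucleus, Rps3, at the mRNA entry channel, and Rpl34 of the large subunit were lower at day 5 than at day 1 and day 2. Rps18, in the head of the small subunit, was lower than at day 2. The 2 comparisons share the day 5 samples, so their calls are not independent of each other.

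Rps3 (gene 27050) had 0.68, 0.63, 0.59 and 0.44 in untreated samples, 0.74, 0.94, 0.66 and 0.44 at day 1, 0.30, 0.41, 0.86 and 1.15 at day 2, and 0.19, 0.11 and 0.02 at day 5. All 3 day 5 samples lay below every other sample. The log2 change was -0.59 ± 0.18 against day 1 (SE, adjusted p = 0.0311) and -0.57 ± 0.18 against day 2 (SE, adjusted p = 0.026). Against untreated samples it was -0.48 ± 0.18 and did not pass (SE, adjusted p = 0.20). The day 1 comparison lost its call in 7 of 26 alternatives (adjusted p up to 0.0928), among them without day 1 replicate 1 or 2 or any 1 day 5 sample. The day 2 comparison lost it in 8 of 26 (adjusted p up to 0.101), among them without day 2 replicate 3 or 4 or any 1 day 5 sample.

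Rps15 (gene 20054) had 0.45, 0.51, 0.45 and 0.33 in untreated samples, 0.90, 0.93, 0.75 and 0.80 at day 1, -0.14, 1.27, 0.75 and 1.40 at day 2, and 0.06, 0.33 and -0.58 at day 5. Day 5 lay wholly below day 1 and overlapped day 2 through 1 low sample, day 2 replicate 1. The log2 change was -0.91 ± 0.28 against day 1 (SE, adjusted p = 0.0362) and -0.88 ± 0.28 against day 2 (SE, adjusted p = 0.0321). Each lost its call in 7 of 26 alternatives (adjusted p up to 0.13 and 0.138). These included leaving out day 5 replicate 1 or 3 in both, day 1 replicate 1, 2 or 4 in the first, and day 2 replicate 2, 3 or 4 in the second.

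Rpl34 (gene 68436) had 0.44, 0.73, 0.42 and -0.22 in untreated samples, 1.28, 0.74, 0.80 and 0.43 at day 1, 0.41, 0.44, 0.49 and 1.35 at day 2, and 0.22, -0.51 and -0.28 at day 5. Day 5 did not overlap day 1 or day 2. The log2 change was -1.0 ± 0.27 against day 1 (SE, adjusted p = 0.0186), a 2.00-fold difference, and -0.86 ± 0.27 against day 2 (SE, adjusted p = 0.0285). The first lost its call without day 1 replicate 1 or day 5 replicate 2 (adjusted p up to 0.0882). The second lost it in 7 of 26 alternatives (adjusted p up to 0.12), among them without day 5 replicate 2 or 3 or day 2 replicate 4, its highest sample.

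Rps18 (gene 20084) had 0.78, 0.92, 0.85 and 0.79 in untreated samples, 0.72, 1.10, 0.79 and 0.55 at day 1, 0.32, 1.08, 1.13 and 1.34 at day 2, and 0.29, 0.60 and 0.11 at day 5. Day 5 overlapped day 2, again through day 2 replicate 1, and lay below all untreated samples. The log2 change was -0.63 ± 0.20 against day 2 (SE, adjusted p = 0.0309). It lost its call in 7 of 26 alternatives (adjusted p up to 0.114), among them without day 2 replicate 2, 3 or 4 or day 5 replicate 1 or 3.

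Rps6 and Rpl37 went the other way. Rps6, the small subunit protein phosphorylated by the S6 kinases below mTOR, and Rpl37, a zinc-finger protein of the large subunit, were higher at day 5 than at day 1. Rpl37 (gene 67281) had -0.28, -0.24, 0.00 and 0.02 in untreated samples, -0.62, -0.74, -0.46 and -0.79 at day 1, -0.13, -0.21 and -0.53 in 3 samples at day 2, and -0.23, -0.43 and 0.19 at day 5. The 4 day 1 samples lay below all untreated and all day 5 samples. The log2 change for day 5 against day 1 was 0.49 ± 0.16 (SE, adjusted p = 0.0411), and it lost its call in 9 of 24 alternatives (adjusted p up to 0.276), among them without day 1 replicate 1, 2 or 4 or day 5 replicate 1 or 3. Without day 5 replicate 3, its highest day 5 sample, it was 0.32. For day 1 against untreated it was -0.53 ± 0.15 (SE, adjusted p = 0.0526).

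Rps6 (gene 20104) had -0.30, -0.34, -0.23 and -0.59 in untreated samples, -0.98, -1.05, -0.96 and -1.02 at day 1, -0.27, -0.27, -0.90 and -0.94 at day 2, and -0.36, 0.56 and 0.01 at day 5. The day 1 samples were the lowest, with an SD of 0.04 (n = 4), and overlapped none of the day 5 samples. The log2 change at day 5 was 1.08 ± 0.21 against day 1 (SE, adjusted p = 0.00307) and 0.67 ± 0.21 against day 2 (SE, adjusted p = 0.026). The second lost its call in 6 of 25 alternatives (adjusted p up to 0.292), among them without day 2 replicate 3 or 4 or day 5 replicate 2. Without day 5 replicate 2, its highest sample, or with technical replicate 2 alone, it was 0.42. However, 7 of the 8 day 1 columns had Rps6 at the shared ratio, as did 2 of 8 day 2 columns, 2 of 8 untreated columns and 0 of 6 day 5 columns. With those values missing Rps6 had too few values at day 1 to be tested, so it dropped out of every comparison. The call against day 1 therefore rests on values at the shared ratio. The F test takes in the same day 1 values, and so does the spread between samples used for day 5 against day 2. In a limma fit of only those 2 groups, day 5 against day 2 had adjusted p = 0.118.

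In all, day 5 against day 1 gave 5 called members, 2 higher and 3 lower (15.6%), against 18.8% of all features, 9.67% higher and 9.09% lower. The groups did not overlap in 10 members, against 30.5% of all features. The largest change that did not pass was in Rps27 (1.19, adjusted p = 0.115), followed by Rps16 (-0.94, adjusted p = 0.0935) and Rpl12 (-0.92, adjusted p = 0.0735). With shared values missing, 25 members could be tested and 5 were called, against 18.9% of all features. Of the 5, 1 was higher and 4 lower, with Rpl15 (-0.65, adjusted p = 0.0168) in place of Rps6. The change of Rpl15 was the same with shared values kept (limma adjusted p = 0.116), since its 1 shared value was in an untreated sample. Leaving that value out lowered the SE from 0.28 to 0.17. The count was 1 without day 1 replicate 1, 2 without day 1 replicate 2, day 5 replicate 1 or day 5 replicate 3, and 3 without day 1 replicate 4 or day 5 replicate 2. These counts are given without the share of all features called in the same refits. The median change was 0.04 over members and -0.05 over all features.

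Day 5 against day 2 gave 6 called members, 1 higher and 5 lower (18.8%), against 25.5% of all features, 12.8% higher and 12.7% lower. The 5 that fell were Rps15, Rpl34, Rpl19, Rps18 and Rps3, and Rps6 rose. Changes were negative in 25 of 32 members, with a median of -0.19. The median over all features was also below 0, at -0.07, and the share of all features with a negative change is not given here. By subunit, 9 of 12 small and 15 of 17 large subunit members were negative, while the paralogs Rpl7l1 and Rpl39l were among the positive ones. The groups did not overlap in 5 members, against 30.4% of all features. With shared values missing 6 of 25 members were called, against 25.8% of all features. All 6 were lower, with Rpl15 (-0.50, adjusted p = 0.0389) in place of Rps6. With shared values kept, the change of Rpl15 was the same, with a larger SE (0.28 against 0.17, limma adjusted p = 0.204). Its 1 shared value was in an untreated sample, outside this comparison, and it had 2 values at day 5.

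The number of members called for day 5 against day 2 changed with the sample left out. Without day 2 replicate 4 limma called none (7 at an unadjusted p under 0.05), without day 5 replicate 3 it called 1, without day 2 replicate 3 it called 2, and without day 5 replicate 2 it called 3. The share of all features called in these refits is not given here. Whether members lost calls more often than other features was not tested. Over every sample left out in turn, the median change of the members ran from -0.40 to -0.17. Day 2 replicate 4 had the highest value of its group in Rpl19, Rpl34, Rps15, Rps18 and Rps3, and day 2 replicate 1 the lowest in the last 4 of these. That replicate 1 had a value for 28 members and 5650 features, the fewest of any sample.

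**Figure D4:**
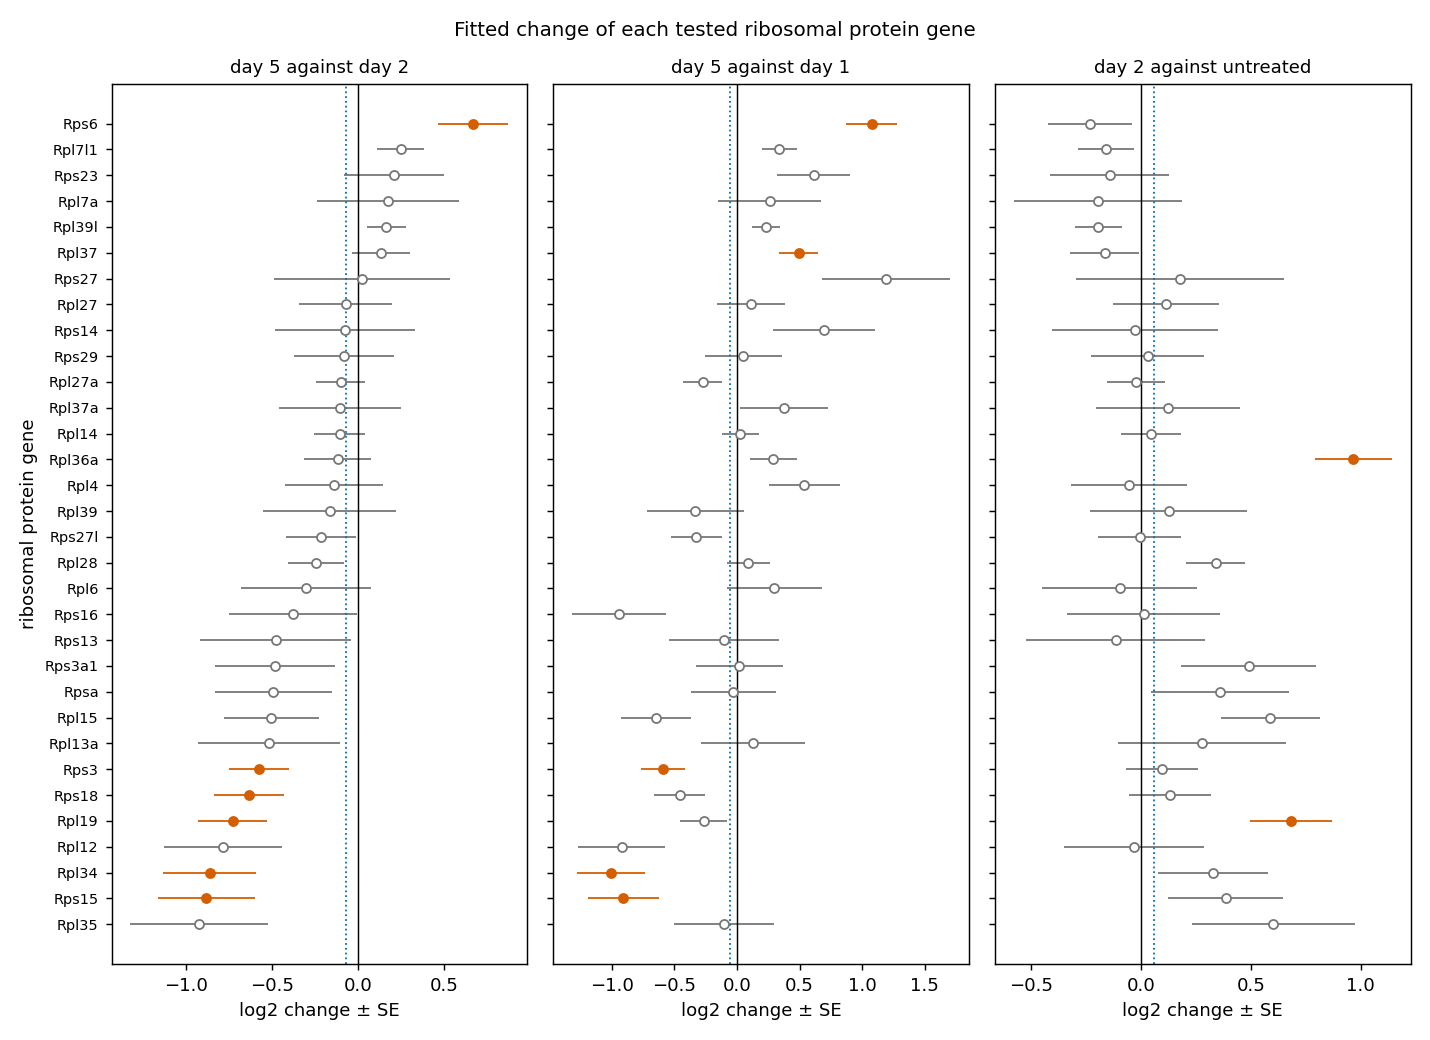
Fitted log2 change ± SE (x axis) of each of the 32 tested ribosomal protein genes (rows, ordered by day 5 against day 2) in 3 comparisons. Filled orange points were called at adjusted p under 0.05, and the dotted line is the median of all 6515 tested features. For day 5 against day 2, 25 of 32 points lie left of 0.

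Markers of blood cell types moved between the same groups. Of all features, 12.8% were called higher and 12.7% lower at day 5 against day 2. At day 2 against untreated samples 4.83% of all features were called higher and 7.84% lower. The mature neutrophil list (10 of 12 members on the array tested) had sample means of 0.26 to 0.70 at day 2, against -0.66 to -0.44 in untreated samples, with 7 of 10 called higher. At day 5 its sample means were -1.11 to -0.64, with 6 of 10 called lower than at day 2. Monocyte markers (6 of 12 tested) had sample means of 0.54 to 0.73 at day 5, against -0.24 to -0.13 at day 2, with 4 of 6 called higher. Erythroid markers (6 of 10 tested) had 0.01 to 0.22 at day 5, against -1.06 to -0.50 at day 2, with 2 of 6 called higher. The 2 were Alas2 (3.57, adjusted p = 3.01e-05) and Bnip3l (1.12, adjusted p = 3.01e-05), and the median change of the list was 0.33. Hba-a1, on the same list, was at the shared ratio in 29 of 30 columns. B cell markers (7 of 12 tested) had -0.37 to -0.06 at day 5, against -0.25 to 0.05 at day 2, with 1 of 7 called higher and 4 lower. Monocyte markers also fell at day 2 against untreated samples, which had 0.56 to 0.97, with 5 of 6 called lower. In that comparison 3 of 6 NK and cytotoxic cell markers, 2 of 7 B cell markers and 2 of 6 erythroid markers were called lower. The B cell and erythroid lists were mixed. Changes were positive in 3 and negative in 4 B cell markers, and positive in 3 and negative in 3 erythroid markers (median -0.10). The NK and cytotoxic cell list had sample means of 0.0043 to 0.28 at day 2, against 0.49 to 1.25 in untreated samples. Of the T cell list 3 of 12 genes on the array were tested, and Cd4 was called in these 2 comparisons. Cd4 was higher at day 2 than in untreated samples (0.53, adjusted p = 0.0421), where 2 of the 3 changes were negative. It was lower at day 5 than at day 2 (-0.58, adjusted p = 0.0224), where 2 of the 3 were positive.

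At day 5 against day 1, B cell markers had 1 of 7 called higher and 3 lower, mature neutrophil markers 1 of 10 higher and 3 lower, NK and cytotoxic cell markers 2 of 6 lower and erythroid markers 2 of 6 higher. Of all features, 9.67% were called higher and 9.09% lower. The B cell sample means were -0.37 to -0.06 at day 5, against -0.06 to 0.09 at day 1, and the neutrophil ones -1.11 to -0.64 at day 5, against -0.57 to -0.12 at day 1. Platelet and megakaryocyte markers (6 of 11 tested) had 3.17 to 3.41 at day 1, against 1.92 to 2.09 in untreated samples, with 3 of 6 called higher. They had 2.10 to 3.36 at day 5, with 1 of 6 called higher than in untreated samples. Of all features, 4.6% were called in either direction at day 1 and 1.09% at day 5 against untreated samples. The part of cell mix in the ribosomal protein changes was not tested.

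Rpsa and the 3 tested paralogs gave no call in any of the 6 comparisons. Rpsa, which also serves as a laminin receptor, had means of -0.10 ± 0.38 in untreated samples, -0.20 ± 0.57 at day 1, 0.26 ± 0.63 at day 2 (SD, n = 4 each) and -0.23 ± 0.38 at day 5 (SD, n = 3). Rps27l, the p53-inducible paralog, had means of -0.99 ± 0.19, -0.89 ± 0.11 and -1.0 ± 0.10 in untreated, day 1 and day 2 samples (SD, n = 4 each), and -1.22 ± 0.61 at day 5 (SD, n = 3). Rpl39l, best known from the testis, had 0.30 ± 0.14, 0.04 ± 0.11 and 0.11 ± 0.10 in the same 3 groups (SD, n = 4 each) and 0.28 ± 0.13 at day 5 (SD, n = 3). Rpl7l1, a relative of Rpl7 on 2 probes, had 0.10 ± 0.28, -0.15 ± 0.10 and -0.06 ± 0.13 (SD, n = 4 each), and 0.19 ± 0.03 at day 5 (SD, n = 3). By limma, 0 or 1 of the 3 paralogs had an unadjusted p under 0.05 in each comparison.

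Of the translation factors and ribosome partners, 15 of 26 on the array were tested, and 2 were called for day 5 against day 2 (13.3%, against 25.5% of all features). Eef1b2, an exchange factor for the elongation factor that carries aminoacyl-tRNA, was lower (-0.56 ± 0.19, SE, adjusted p = 0.0399), and Eif6, which keeps the subunits apart, was higher (0.41 ± 0.14, SE, adjusted p = 0.0444). The other 5 comparisons called none of the 15 by limma, with 0 to 3 at an unadjusted p under 0.05.

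Of the ribosome assembly genes, 15 of 39 on the array were tested. Nop58, a core protein of the particles that methylate ribosomal RNA, was higher at day 2 than in untreated samples (0.91 ± 0.24, SE, adjusted p = 0.0194), the 1 call of that comparison (6.67%, against 12.7% of all features). At day 5 against day 1, 4 were called (26.7%, against 18.8% of all features). Of these 1 was higher, Nop10 of the pseudouridylation particles (0.47, adjusted p = 0.0177), and 3 were lower, Riok1 (-0.65, adjusted p = 0.0483), Ddx21 (-0.57, adjusted p = 0.0427) and Utp20 (-0.41, adjusted p = 0.028). At day 5 against day 2, Nop10 (0.49, adjusted p = 0.00929) and Rrp1 (0.39, adjusted p = 0.0264) were higher (13.3%, against 25.5% of all features). Of the genes that control TOP mRNAs, 5 of 10 on the array were tested. Myc, a driver of ribosome production, was called higher at day 5 than at day 1 (0.82 ± 0.20, SE, adjusted p = 0.0105). That is 1 of 5 (20%), against 18.8% of all features.

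Mitochondrial ribosomal proteins, which serve the separate ribosome of mitochondria, were tested for 37 of 64 genes on the array. At day 5 against day 2, 3 were higher and 6 lower (24.3%, against 25.5% of all features). The 3 higher were Mrpl38 (1.15 ± 0.14, SE, adjusted p = 2.94e-05), Mrpl57 (0.97, adjusted p = 0.000175) and Mrps14 (0.76, adjusted p = 0.00276). Of the 6 lower, the largest changes were in Mrpl55 (-0.64, adjusted p = 0.0174), Mrpl9 (-0.61, adjusted p = 0.0341) and Mrps18a (-0.61, adjusted p = 0.00213). Mrpl38, Mrpl57 and Mrps14 were called lower at day 2 than in untreated samples (-0.76, -0.63 and -0.59, adjusted p = 0.000925, 0.00545 and 0.0181). The 2 comparisons share the day 2 samples. Mrpl35 was called higher at day 2 than in untreated samples (0.35, adjusted p = 0.0226). These calls make 10.8% of the mitochondrial members, against 12.7% of all features. The median change of the 37 mitochondrial members for day 5 against day 2 was -0.10, against -0.19 for the cytosolic members.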

How the data were processed

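Per the labels, blood RNA was amplified and labelled with Cy5 and a bone marrow pool with Cy3. The deposited values are log ratios made by the authors, taken here as log2; the sources used here name no scanner, background correction, normalization or filter behind empty cells. They run from -4.70 to 5.76, beyond the 4.82 of a log10 ratio from 16-bit intensities, and column medians lie between -0.0028 and 0.025. Intensities were not used, so the number of biological samples per group limits the precision, not a count. The labels call the samples independently harvested.

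Probes were named by the platform annotation (10032 with 1 symbol, 170 with several, 3241 with none); 3 probes with several symbols that name a ribosomal protein were not used. Technical replicates and then probes of a gene were averaged. Tests used limma 3.58.1 in R 4.3.3 (lmFit, eBayes, 1 mean per group over 15 samples), with Benjamini-Hochberg adjustment over 6515 features, and were tested on simulated data. A missing sample drops out of that gene's fit. Promoter motifs were counted in RefSeq promoters with pandas in Python.

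Members and lists were chosen with earlier results of these data known. Genes named were the called members, the 6 largest changes where under 6 were called, the 3 highest and lowest untreated levels, members of special role, and paralogs. Alternatives were quantile normalization, other filters on missing values, single technical replicates, another prior, array weights, fits of 2 groups, a replicate block, 1 probe per gene, each sample left out and, chosen after seeing the data, shared values as missing.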

Additional observations from a re-analysis of the deposited data

Results flagged for a closer look

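A sample was picked out where its gap to the nearest other sample of a group of 4, over the range of the group, was above Dixon's critical value for 4 samples. Of 72 checks on named members and the list median, 8 passed it, and chance flags about 1 in 20 groups. In day 1 replicate 3, Rpl35 was high at 0.48 (the other 3 at -0.81 to -0.63), Rpl37a at -0.050 (the others at -1.05 to -0.98), Rpl6 at -0.50 (the others at -1.02 to -0.98) and Rps13 at -0.38 (the others at -1.03 to -0.98), while the paralog Rps27l was low at -1.06 (the others at -0.86 to -0.82). The other day 1 samples had 5 to 7 members at the shared ratio in each column, and replicate 3 had 0 and 1. Rpl15 was low at -0.92 in untreated replicate 3 (the others at 0.15 to 0.34), the one sample in which it was at the shared ratio. Rpl34 was high at 1.35 in day 2 replicate 4 (the others at 0.41 to 0.49). Rps27l was the highest at -0.86 in day 2 replicate 1 (the others at -1.06 to -1.03).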

How the results depend on the processing

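No named change reversed its sign. Brackets give the share of all features called in the same fit. Quantile normalization called 2 members for day 1 against untreated (7.09%) and 1 for day 2 against untreated (15.7%). Technical replicate 1 alone, with 27 members tested, called 1 for day 2 against untreated (11.6%), 3 for day 5 against day 1 (16.4%) and 2 in the F test (21.5%). Technical replicate 2 alone, with 28 tested, called 1 for day 1 (4.69%) and 1 for day 2 against untreated (12.3%). It also called 3 for day 5 against day 2 (25%) and 2 in the F test (22.5%). Array weights called 5 for day 1 against untreated (13.9%) and 2 for day 5 against day 2 (21.4%). Fits of 2 groups called 4 for day 1 against untreated (8.87%), 1 for day 5 against untreated (0.522%) and 1 for day 5 against day 2 (14.4%). The trended prior called 1 for day 2 against untreated (12.7%). Complete features, which leave 22 members, gave 0 for day 2 against untreated (17.7%), 2 in the F test (30.5%) and a median of -0.26 for day 1 against untreated. With no filter the F test called 3 of 38 members (15.6%). The causes of these differences were not tested.

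Leaving out 1 sample gave 0 to 2 calls for day 1, 1 to 3 for day 2 and 0 to 1 for day 5 against untreated, 0 for day 2 against day 1, 1 to 7 for day 5 against day 1, 0 to 7 for day 5 against day 2 and 2 to 7 in the F test. The share of all features called in each refit is not given here, so these counts do not compare members with other features. Median changes ran from -0.13 to -0.07 for day 1, -0.01 to 0.13 for day 2 and -0.21 to -0.049 for day 5 against untreated, from 0.17 to 0.33 for day 2 against day 1, from -0.08 to 0.12 for day 5 against day 1 and from -0.40 to -0.17 for day 5 against day 2. Quantile normalization kept the direction of every named call.

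Replicate numbers showed no sign of pairing the samples. Of 21 same-numbered pairs 7 had a correlation of deviations over 0.1 (range -0.35 to 0.22). Of 63 pairs with different numbers 19 did (range -0.40 to 0.41). Among the 15 samples, 4 correlated best with their own number. With the replicate block, 0, 2 and 0 members were called at day 1, 2 and 5 against untreated (1.64%, 10.4% and 0.767% of all features). That fit called 0 for day 2 against day 1 (0.507%), 2 for day 5 against day 1 (14.3%), 4 for day 5 against day 2 (22.3%) and 3 in the F test (18.1%).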
